A study of Mus musculus with 4 samples.

Results

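The 60 genes described here encode the machinery that copies DNA and divides the cell, and they were followed in macrophages that lack MyD88, the adaptor of most Toll-like receptors, without and with zymosan. They were taken as a fixed list of gene symbols and split by role into 25 DNA replication genes, 22 mitosis genes and 13 regulators of the G1 phase. Of these, 59 had at least 1 probe set that carried their symbol alone in the platform annotation, and Ccnb1 had no such probe set. The 59 genes had 134 of the 45037 probe sets of the Affymetrix Mouse430_2 array, and 115 of the 134 reached the 40th percentile of the array on at least 2 arrays and were tested, at least 1 for each of the 59 genes. The other 19 stayed below that filter, and no tested member probe set had a whole group of arrays below its level.

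All 4 arrays came from MyD88-/- macrophages grown from mouse bone marrow for 6 days with recombinant human M-CSF (macrophage colony-stimulating factor). The unstimulated group (2 arrays, 0 min) had no stimulus, and the titles of its arrays name LPS and PIC rather than zymosan as their series. The zymosan group (2 arrays) had zymosan, a yeast cell wall particle, at 100 ug/ml for 120 min. The sources used here give neither age nor strain of the mice. They also do not say if 2 arrays of 1 group stand for separate mice or cultures, so each p-value below rests on array spread that may be technical. No wild-type array was analysed here.

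A cell commits to division late in G1, when D-type cyclins with Cdk4 and Cdk6, and then E-type cyclins with Cdk2, inactivate the retinoblastoma protein and free E2F transcription factors. E2F switches on the genes of DNA replication: the Mcm helicase, its loaders, the clamp Pcna and the enzymes that make nucleotides. A later wave, driven through CHR and CCAAT promoter elements by the MuvB complex, B-Myb, Foxm1 and NF-Y, switches on the mitotic kinases, spindle motors and kinetochore genes. Macrophages grown from bone marrow divide in M-CSF, and stimuli that activate them are known to arrest the cycle, with D-type cyclins as an early target.

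The letters that these factors read were sought in the members' promoters. No promoter window was used for Mcm4, Gins1, Gins2, Ccna2, Aurkb, Kif20a, Tpx2, Ccnd1, Ccnd2 and Ccne2. For the other 50 of the 60 genes, RefSeq windows of 300 bases (250 before to 50 after the transcript start, GRCm38.p6) were used. They were searched on both strands for E2F letters (TTTCCCGC or TTTGGCGC), CHR letters (TTTGAA or TTCGAA) and the CCAAT box (CCAAT). No motif contains another, and TTCGAA is its own reverse complement. Of the 32851 windows used, from 27025 genes, 1.56% held the E2F letters, 19.2% the CHR letters and 37.4% CCAAT. These windows do not stand for every gene, and a gene without one here may have one in the reference. Of the 27 windows of replication genes, 8 (29.6%) held the E2F letters, 4 (14.8%) the CHR letters and 15 (55.6%) CCAAT. Of the 18 windows of mitosis genes, 0 held the E2F letters, 13 (72.2%) the CHR letters and 15 (83.3%) CCAAT. Of the 14 windows of G1 regulators, 2 (14.3%), 1 (7.14%) and 6 (42.9%) held them. The windows shown belong to 4 of the 6 genes that rose with zymosan at the probe set of highest mean (Mki67, Cdk1, Kif23 and Mcm2) and to Mcm6, a replication gene that carries the E2F letters and did not pass the test. Of the other risers at that level, Cdk6 has a window with none of these letters, which is not printed, and Ccne2 has no window here. They lie at chr7:135716330-135716629 (Mki67), chr10:69352863-69353162 (Cdk1), chr9:61946750-61947049 (Kif23), chr6:88898731-88899030 (Mcm2) and chr1:128359656-128359955 (Mcm6), all on the minus strand, and are written 5′ to 3′ along the gene with every match in capitals.
Mki67: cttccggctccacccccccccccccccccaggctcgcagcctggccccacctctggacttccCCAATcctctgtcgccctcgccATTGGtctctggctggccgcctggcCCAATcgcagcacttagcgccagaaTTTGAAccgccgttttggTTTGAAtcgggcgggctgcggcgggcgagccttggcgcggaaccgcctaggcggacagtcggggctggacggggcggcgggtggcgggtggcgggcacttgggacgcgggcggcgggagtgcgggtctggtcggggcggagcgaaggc
Cdk1: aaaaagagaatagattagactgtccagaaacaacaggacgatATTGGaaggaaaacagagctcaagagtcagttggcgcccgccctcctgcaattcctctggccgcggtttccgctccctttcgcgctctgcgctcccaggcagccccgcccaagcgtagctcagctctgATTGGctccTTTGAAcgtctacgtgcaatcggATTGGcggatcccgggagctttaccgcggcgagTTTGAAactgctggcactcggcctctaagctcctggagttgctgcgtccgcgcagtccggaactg
Kif23: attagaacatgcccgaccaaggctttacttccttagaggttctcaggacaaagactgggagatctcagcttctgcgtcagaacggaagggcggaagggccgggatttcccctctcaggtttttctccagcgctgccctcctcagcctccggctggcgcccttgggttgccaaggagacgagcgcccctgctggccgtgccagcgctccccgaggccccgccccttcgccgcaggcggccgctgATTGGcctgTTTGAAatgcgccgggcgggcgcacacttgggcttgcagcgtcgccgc
Mcm2: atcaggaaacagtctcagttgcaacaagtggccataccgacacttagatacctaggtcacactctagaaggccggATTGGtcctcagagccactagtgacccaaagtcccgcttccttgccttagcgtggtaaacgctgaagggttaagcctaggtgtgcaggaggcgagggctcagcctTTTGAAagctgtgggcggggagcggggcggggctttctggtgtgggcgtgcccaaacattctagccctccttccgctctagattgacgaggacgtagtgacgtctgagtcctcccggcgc
Mcm6: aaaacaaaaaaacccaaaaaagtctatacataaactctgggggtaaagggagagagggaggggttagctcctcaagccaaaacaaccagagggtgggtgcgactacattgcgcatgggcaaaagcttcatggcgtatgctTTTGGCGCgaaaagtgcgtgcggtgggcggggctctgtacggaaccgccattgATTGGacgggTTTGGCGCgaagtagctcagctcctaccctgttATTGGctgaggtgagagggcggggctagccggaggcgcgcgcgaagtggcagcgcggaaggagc

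Mki67, Cdk1 and Kif23 each carry CHR letters (TTTGAA) and a CCAAT box on 1 or the other strand. Mcm2 has the same pair and no match to the E2F letters searched, whereas Mcm6 has TTTGGCGC at 2 places. A match is a description of the letters, not a bound site.

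The groups were not scanned on the same days, and the scan day is taken here as the processing day. The scanner settings give the unstimulated arrays different scan days and both zymosan arrays 1 further day, so that day and stimulus cannot be told apart in what follows. The unstimulated arrays differed from each other with an SD of 0.29 (log2) over the 27571 tested probe sets and the zymosan arrays with an SD of 0.20. The 9 measured macrophage markers (among them Adgre1, Csf1r, Cd68 and Lyz2) were all above the filter. Markers of other lineages were mixed. Of 7 measured T and NK markers 3 passed the filter (Cd3e, Cd4 and Cd8a) and 4 were below its level on every array (Cd3g, Cd3d, Ncr1 and Gzma). Of 9 B-cell markers 6 passed, among them Ighm, Blnk, Igll1 and Pax5, and 3 were below on every array (Ms4a1, Vpreb1 and Ebf1). Of 8 erythroid and megakaryocyte markers 4 passed (Klf1, Epor, Pf4 and Itga2b), and Hba-a1 and Gata1 were below on every array. With 2 arrays against 2, an exact 2-sided permutation test cannot give a p under 0.333. The adjusted p-values below therefore come from limma, which shares variance across probe sets, with Benjamini-Hochberg adjustment over all 27571 and a threshold of 0.05. A difference is the zymosan mean less the unstimulated mean in log2 units, given with limma's standard error (SE).

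Across the 60 genes, 39 of the 59 measured (66.1%) had a higher mean with zymosan and 20 a lower one. Of all 13222 genes, 50.7% had a higher mean with zymosan. The share of members that passed the test was close to that of the whole array. Of the 115 member probe sets, 11 (9.57%) rose and 8 (6.96%) fell, where 8.48% of all tested probe sets rose and 7.45% fell. With each gene read at its probe set of highest mean, 6 of 59 genes rose and 1 fell, where 8.36% of all 13222 genes rose and 5.64% fell. With those genes alone in the fit, 8 members rose and 1 fell, against 10.1% and 6.73% of all genes. Both zymosan arrays lay above both unstimulated arrays at 53 of the 115 member probe sets and below both at 30, where 30.4% and 30.2% of all probe sets did. Markers of other cells moved in the same comparison. Of 9 measured markers of granulocyte precursors, which are cycling marrow cells, 6 rose. Among these, Ms4a3 and Myb were below the filter's level on both unstimulated arrays and were tested only through their zymosan values. The summed linear level of the 9 (2 to the power of the log2 value) went from 231 and 217 to 646 and 697. Gfi1 was below the filter's level on every array, Kit also did not pass the filter, and Cd34 differed by -0.23 (adjusted p = 0.486). Of 9 late neutrophil markers 6 rose, with sums from 1042 and 1121 to 4647 and 4810 and Cxcr2 below the level. Ltf differed by 0.36 without passing the test, and Mmp9 was lower on both zymosan arrays (difference -0.73, adjusted p = 0.121). Of 9 macrophage markers 5 fell, with sums from 49257 and 52673 to 42687 and 42738. Of 9 B-cell markers 6 were tested, and Cd79b and Ighm fell. Limma called none of the tested T and NK (3 of 7), erythroid and megakaryocyte (4 of 8), mast-cell (2 of 7) or stromal (6 of 9) markers. The part of all these markers in the members' values was not tested. In bulk RNA, fewer cells of a type and less RNA per cell cannot be told apart. Of the 19 member calls, 2 were kept when the day entered as a random block (a fit added once the values had been seen), 2 without zymosan replicate 1 and 0 without zymosan replicate 2. In that last fit limma called no member probe set, and 23 of 115 had an unadjusted p under 0.05. Without a zymosan array that group has 1 array, which is assumed to vary like the unstimulated pair from its different days. The differences of Mcm2 at 1434079_s_at (0.46 to 0.50) and Mki67 (0.67 to 0.71) then stayed close to those with all arrays. At these 2 probe sets zymosan array 1 less array 2 was only -0.03 and -0.04. It was 0.47 at Ccnd1 1417419_at, 0.45 at E2f2 1455790_at and 0.28 at Rrm1 1448127_at, where the differences moved more.

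**Figure D1:**
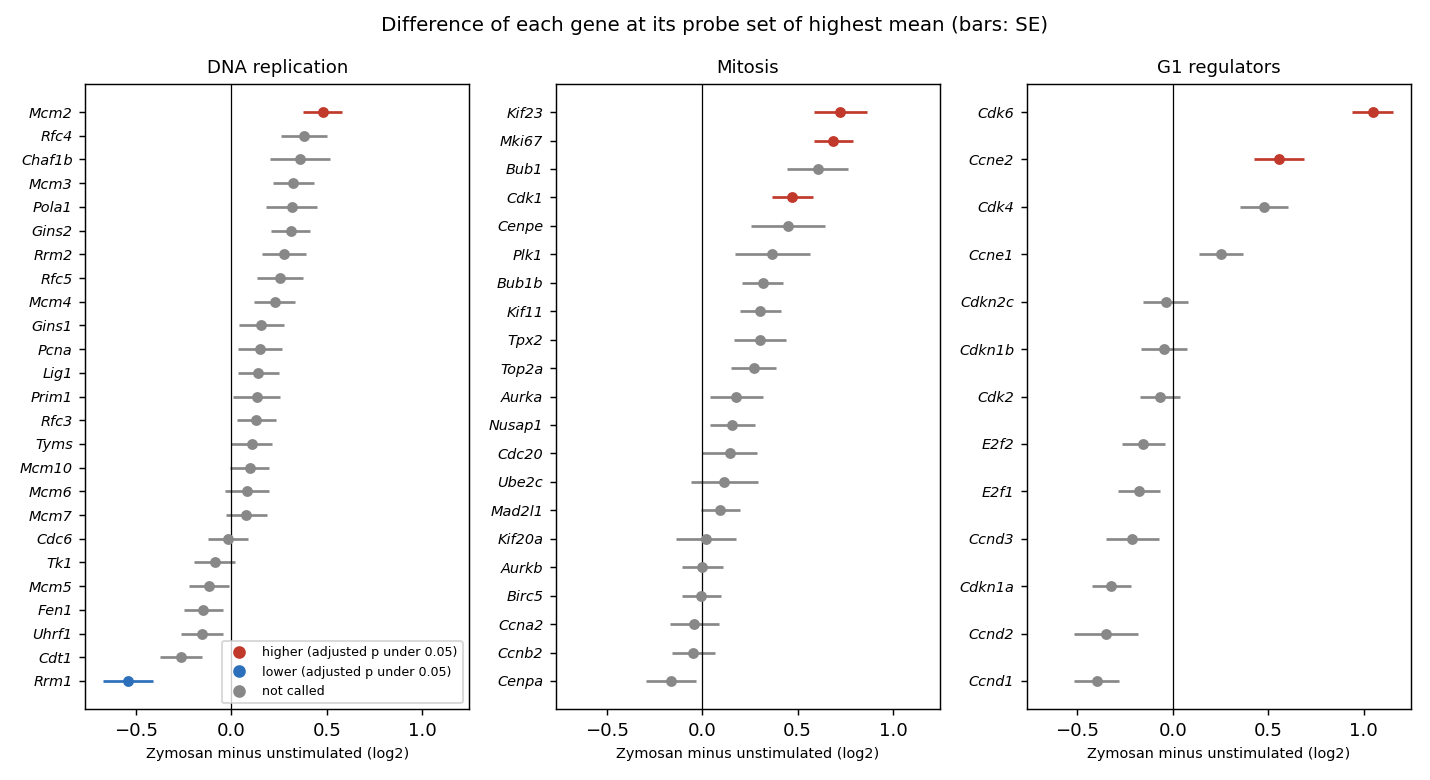
Difference of each of the 59 measured genes (zymosan minus unstimulated, log2, horizontal axis) at its probe set of highest mean, by role, with bars of 1 SE and colour for limma's call. Of the replication genes 18 of 25 and of the mitosis genes 17 of 21 lie above 0, where 50.7% of all genes do. Rrm1 alone is called lower and Cdk6 is farthest to the right at 1.05.

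The replication and mitosis genes sat slightly higher on the zymosan arrays, but for mitosis the shift was about as large as the gap between the unstimulated arrays. The level of a list on an array was taken as the median over its genes of the value minus the gene's mean over the 4 arrays. For the 25 replication genes it was -0.03 and -0.06 on unstimulated arrays 1 and 2 and 0.04 and 0.09 on zymosan arrays 1 and 2. For the 21 measured mitosis genes it was 0.02 and -0.20 on the unstimulated and 0.09 and 0.15 on the zymosan arrays. For the 13 G1 regulators it was 0.02 and 0.01 on the unstimulated and -0.05 and -0.03 on the zymosan arrays. Over all 13222 genes the 4 values lay between -0.03 and 0.01.

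The median difference was 0.13 over the replication genes, 0.18 over the mitosis genes and -0.07 over the G1 regulators, against 0.00 over all genes. Unstimulated array 1 was above unstimulated array 2 in 19 of 21 mitosis genes, by a median of 0.15, where 57.5% of all genes were, by a median of 0.04. The mitosis median was 0.09 and 0.10 when the zymosan arrays were set against unstimulated array 1, and 0.26 and 0.29 against unstimulated array 2. For the replication genes these values were 0.08 and 0.13, and 0.12 and 0.17. Both zymosan arrays lay above both unstimulated arrays in 16 of 25 replication genes (64.0%), 12 of 21 mitosis genes (57.1%) and 4 of 13 G1 regulators (30.8%), where 32.4% of all genes did. They lay below both in 6 replication genes, 0 mitosis genes and 7 G1 regulators, where 28.2% of all genes did. No test was made of these lists, since their members were chosen with earlier results known.

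**Figure D2:**
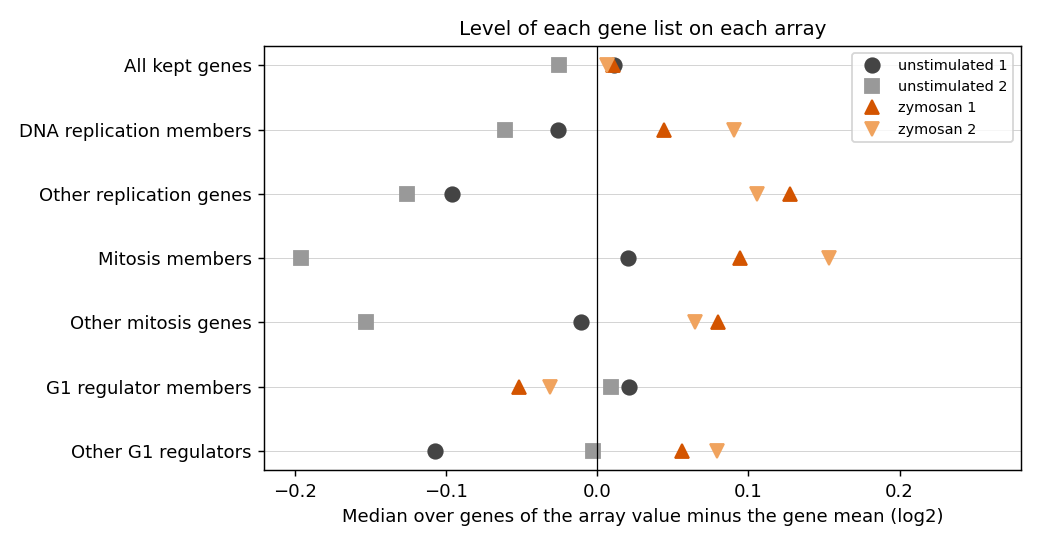
Level of each gene list on each array (median over genes of the value minus the gene's mean over the 4 arrays, log2), for the member lists, the other genes of the same roles and all kept genes. Unstimulated array 2 lies farthest left for the mitosis members, at -0.20, and unstimulated array 1 lies at 0.02, between it and the zymosan arrays at 0.09 and 0.15.

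Of the DNA replication genes, Mcm2 rose and Rrm1 and Uhrf1 each fell at 1 probe set. The remaining 45 of 49 tested probe sets did not pass the test. The 2 probe sets that rose and the 2 that fell were 4.08% each of the list. Over all tested probe sets 8.48% rose and 7.45% fell. Mcm2 is a subunit of the Mcm2-7 helicase that unwinds the DNA ahead of the fork. At its probe set of highest mean (1434079_s_at) it read 9.33 and 9.25 on the unstimulated and 9.75 and 9.79 on the zymosan arrays. The groups did not overlap, and Mcm2 rose 1.39-fold (difference 0.48, SE 0.10, adjusted p = 0.0356). Its other probe set (1448777_at) read 8.87 and 8.81 without and 9.49 and 9.46 with zymosan, and rose 1.55-fold (adjusted p = 0.0161), so that both readings of the gene were higher.

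The other subunits of the ring did not pass the test. Mcm3 differed by 0.32 (SE 0.11, adjusted p = 0.0994), Mcm4 by 0.23, Mcm6 by 0.08, Mcm7 by 0.08 and Mcm5 by -0.12 (95% interval -0.38 to 0.14, adjusted p = 0.502). Of the 6 subunits, which load as 1 complex, Mcm2 was the only one past the threshold at any probe set. The difference between Mcm2 and the other subunits was not tested. Mcm10, which helps to activate the helicase, differed by 0.10.

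Around the helicase, most loading, clamp and chromatin assembly genes had slightly higher means that did not pass the test. Rfc4, a subunit of the complex that loads the Pcna clamp, read 8.52 and 8.46 unstimulated and 8.77 and 8.98 with zymosan, a difference of 0.38 (SE 0.12, adjusted p = 0.0896). Chaf1b, a chromatin assembly subunit that follows the fork, read 8.62 and 8.29 against 8.70 and 8.92, a difference of 0.36 (SE 0.16, adjusted p = 0.184). Pcna itself read 13.41 and 13.23 against 13.50 and 13.45, a difference of 0.15 (95% interval -0.14 to 0.44, adjusted p = 0.435). Cdt1, which licenses origins and is destroyed once replication starts, had lower values with zymosan at both probe sets. It read 10.94 and 10.82 unstimulated and 10.58 and 10.66 with zymosan (difference -0.26, SE 0.11, adjusted p = 0.171) at the probe set of highest mean.

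Among the enzymes of nucleotide supply, Rrm1 was the member that fell. It encodes the large subunit of ribonucleotide reductase, which makes deoxyribonucleotides. At 1448127_at it read 10.91 and 10.88 unstimulated and 10.49 and 10.22 with zymosan, so that the groups did not overlap and Rrm1 fell by 0.54 (SE 0.13, adjusted p = 0.0457). Its second probe set (1415878_at) read 10.42 and 10.35 against 10.56 and 10.53, a difference of 0.16 in the opposite direction (adjusted p = 0.352). Rrm2, the small subunit, differed by 0.27 (95% interval -0.01 to 0.56, adjusted p = 0.170) at its probe set of highest mean and by 0.15 and -0.22 at the others. Tyms, thymidylate synthase, differed by 0.11 (adjusted p = 0.559) and Tk1, thymidine kinase, by -0.09.

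Uhrf1 reads hemimethylated DNA behind the fork and brings in the maintenance methyltransferase. At 1415811_at it read 8.72 and 8.67 unstimulated and 7.54 and 7.35 with zymosan and fell 2.37-fold (difference -1.24, SE 0.12, adjusted p = 0.0045). At the probe set of highest mean (1415810_at) it read 9.94 and 10.10 against 9.85 and 9.89, a difference of -0.15, short of the threshold (adjusted p = 0.409). The remaining replication genes, Gins1, Gins2, Rfc3, Rfc5, Pola1, Prim1, Cdc6, Fen1 and Lig1, lay between -0.15 (Fen1) and 0.32 (Pola1) at their probe sets of highest mean, and none passed.

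Of the replication calls, Uhrf1 kept its own without zymosan replicate 1 (adjusted p = 0.0351), without either unstimulated array and when the day was blocked (adjusted p = 0.0209), and lost it without zymosan replicate 2 (adjusted p = 0.0544). Both Mcm2 calls were lost without zymosan replicate 1, without zymosan replicate 2 and when the day was blocked, 1434079_s_at also without unstimulated replicate 2, and the Rrm1 call was lost in each of these fits and without unstimulated replicate 1 (adjusted p from 0.0544 to 0.263 for the 4 probe sets without zymosan replicate 2).

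**Figure D3:**
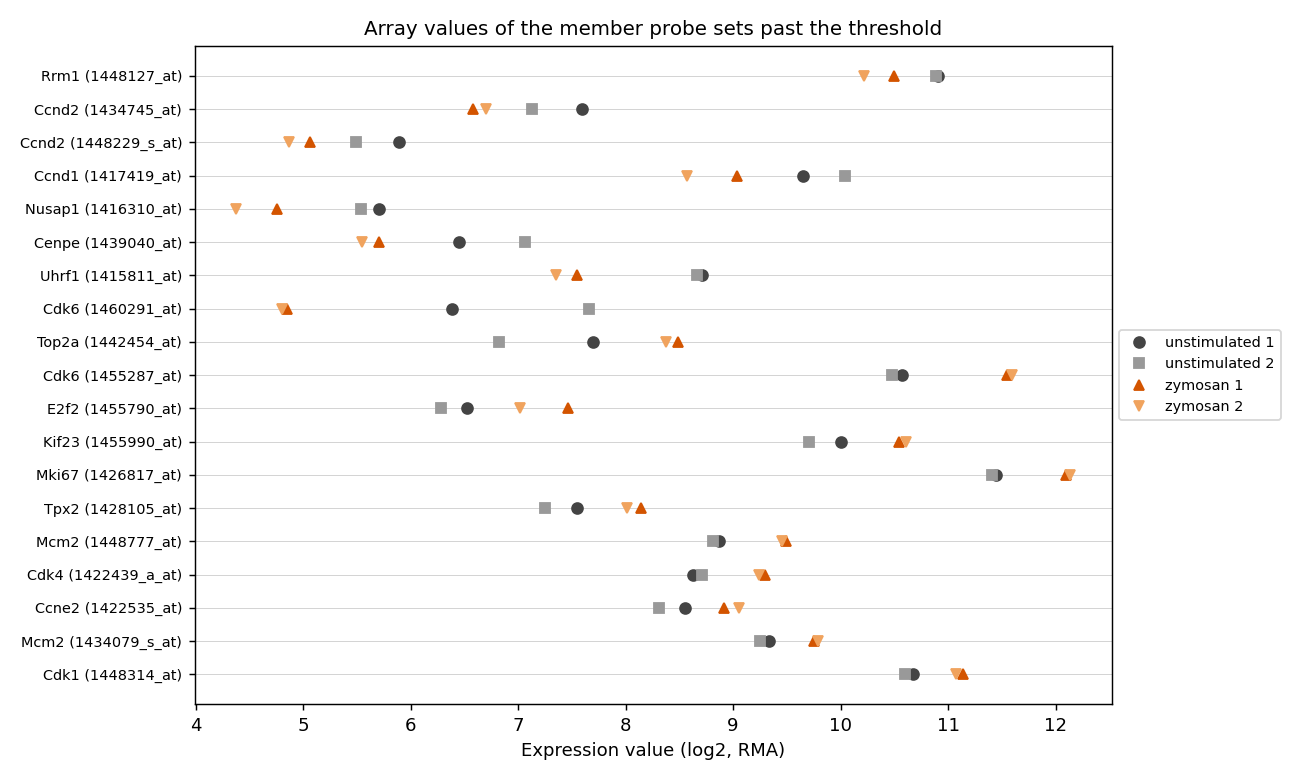
Array values (log2, RMA) of the 19 member probe sets past the threshold, with 1 symbol per array and the probe set named beside its gene. The zymosan arrays lie close together in most lines, whereas the unstimulated arrays are 1.27 apart at Cdk6 1460291_at and 0.87 apart at Top2a 1442454_at.

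Among the mitosis genes, Mki67, Kif23 and Cdk1 rose at their probe sets of highest mean, and none fell there. At that level 3 of the 21 genes rose and limma called 0 lower, where 8.36% of all genes rose and 5.64% fell. Of the 21, limma gave 0 an unadjusted p under 0.05 in the lower direction. Over all 38 tested probe sets of the list, 5 rose (13.2%) and 2 fell (5.26%), where 8.48% and 7.45% of all tested probe sets did. Mki67, the cycling-cell marker Ki-67 that coats mitotic chromosomes, read 11.45 and 11.41 unstimulated and 12.10 and 12.14 with zymosan. The pairs were tight and far apart, and Mki67 rose 1.61-fold (difference 0.69, SE 0.10, adjusted p = 0.0133).

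Kif23 encodes a kinesin of the central spindle that is needed for the daughter cells to separate. At 1455990_at it read 10.01 and 9.70 unstimulated and 10.55 and 10.61 with zymosan and rose 1.65-fold (difference 0.72, SE 0.14, adjusted p = 0.0241). Cdk1, the kinase that drives entry into mitosis, read 10.67 and 10.60 against 11.14 and 11.07 and rose 1.39-fold (difference 0.47, SE 0.11, adjusted p = 0.0378). The groups did not overlap for either gene, and the second probe set of Kif23 differed by 0.55 (adjusted p = 0.0822).

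The cyclin partners of Cdk1 did not pass the test. Ccna2, cyclin A, read 10.67 and 10.58 unstimulated and 10.71 and 10.46 with zymosan, a difference of -0.04 (95% interval -0.36 to 0.28, adjusted p = 0.870). Ccnb2, a B-type cyclin, differed by -0.05 (95% interval -0.33 to 0.23, adjusted p = 0.821). Birc5, or survivin, of the chromosomal passenger complex read 10.80 and 10.76 against 10.77 and 10.79, with overlapping groups and a difference of -0.01 (95% interval -0.26 to 0.25, adjusted p = 0.981). Its partner kinase Aurkb differed by 0.00.

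The spindle checkpoint genes had higher means that stayed short of the threshold. Bub1, a checkpoint kinase at the kinetochore, read 9.63 and 9.38 unstimulated and 9.94 and 10.28 with zymosan, a difference of 0.60 (SE 0.16, adjusted p = 0.0592), and its second probe set differed by 0.49 (adjusted p = 0.0624). Bub1b, which encodes its relative BubR1, differed by 0.32 and 0.46 at 1416961_at and 1447363_s_at, and Mad2l1 by 0.10. Plk1, a kinase of mitotic entry and exit, read 8.92 and 8.36 on the unstimulated arrays and 9.02 and 9.0 on the zymosan arrays, so that the spread of the unstimulated pair exceeded its difference of 0.37 (adjusted p = 0.262). Cenpa, the histone of centromeres, had the lowest difference of the list at the probe sets of highest mean, -0.16 (adjusted p = 0.458), while other probe sets of Cenpe, Nusap1 and Kif11 were lower. Aurka, Cdc20, Kif20a and Ube2c, kinase, activator, motor and ubiquitin enzyme of mitotic progress, differed by 0.02 to 0.18, with overlapping groups.

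At probe sets that were not the highest of their gene, Top2a and Tpx2 rose and Cenpe and Nusap1 fell. Top2a, the topoisomerase that untangles sister chromosomes, rose 2.25-fold at 1442454_at, from 7.69 and 6.82 to 8.49 and 8.37 (SE 0.28, adjusted p = 0.0449), and differed by 0.27 at 1454694_a_at (adjusted p = 0.190). Tpx2, a spindle assembly factor that activates Aurora A, rose 1.60-fold at 1428105_at, from 7.55 and 7.25 to 8.14 and 8.01 (adjusted p = 0.0304). It differed by 0.30 at 1428104_at, its probe set of highest mean (adjusted p = 0.196), and by 0.14 and 0.00 at the others. Cenpe, the kinesin of the kinetochore, fell 2.19-fold at 1439040_at, from 6.45 and 7.07 to 5.71 and 5.55 (adjusted p = 0.0242), and differed by 0.45 at 1435005_at (adjusted p = 0.183). Nusap1, which binds spindle microtubules, fell 2.08-fold at 1416310_at, from 5.70 and 5.54 to 4.76 and 4.38 (adjusted p = 0.0134), and differed by 0.16 at 1416309_at (adjusted p = 0.423).

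Without zymosan replicate 2, and also when the day was blocked, limma called 0 of the 38 mitosis probe sets, where 9 and 10 had an unadjusted p under 0.05. Without zymosan replicate 1 it called 0 higher and 2 lower (Nusap1 at 1416310_at with adjusted p = 0.0442, and Kif11), and the number higher was 9 without unstimulated replicate 1 and 3 without unstimulated replicate 2. In the latter fit the calls of Cdk1 and Tpx2 were lost and the Top2a difference at 1442454_at was 0.74, against 1.61 without unstimulated replicate 1.

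Among the G1 regulators, 1 probe set of Ccnd1, 2 of Ccnd2 and 1 of Cdk6 fell, and 1 each of Cdk4, Ccne2, E2f2 and Cdk6 rose. These 4 and 4 of 28 tested probe sets (14.3% each) stand beside 8.48% higher and 7.45% lower over the array. At the probe set of highest mean 2 of 13 genes rose, Cdk6 and Ccne2, and 0 fell by limma, where 8.36% of all genes rose and 5.64% fell. Of the 13, limma gave 2 an unadjusted p under 0.05 in the lower direction.

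All 3 tested probe sets of Ccnd1 and all 5 of Ccnd2 had lower means with zymosan. Ccnd1, the main growth-factor-induced D-type cyclin of macrophages, fell 2.06-fold at 1417419_at, from 9.65 and 10.04 to 9.04 and 8.57 (difference -1.04, SE 0.21, adjusted p = 0.0276). At 1448698_at, its probe set of highest mean, it read 11.50 and 11.65 against 11.24 and 11.11, a difference of -0.40 (SE 0.12, adjusted p = 0.0764), and at 1417420_at it differed by -0.35 (adjusted p = 0.109). The groups overlapped at none of the 3.

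Ccnd2, a second D-type cyclin, fell 1.65-fold at 1434745_at, from 7.60 and 7.13 to 6.58 and 6.70 (adjusted p = 0.0476). At 1448229_s_at it fell 1.66-fold, from 5.89 and 5.50 to 5.06 and 4.87 (adjusted p = 0.0399). Its other tested probe sets differed by -0.35, -0.46 and -0.62 without passing the test. On every Ccnd2 probe set tested, unstimulated array 1 was above unstimulated array 2, by 0.36 to 0.47. Ccnd3 differed by -0.21 (95% interval -0.56 to 0.13, adjusted p = 0.355).

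Of the kinase partners of these cyclins, Cdk4 rose 1.51-fold at 1422439_a_at, from 8.63 and 8.71 to 9.29 and 9.24 (difference 0.60, SE 0.11, adjusted p = 0.0198). The remaining Cdk4 probe sets had differences of 0.48 (adjusted p = 0.0588) and 0.34 (adjusted p = 0.0798), with no overlap between the groups at any of the 3. Cdk2, the partner of the E-type cyclins, differed by -0.07 (adjusted p = 0.726).

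Cdk6 had the highest difference of the 59 genes at the probe set of highest mean and the lowest difference of all 115 probe sets. At 1455287_at, its probe set of highest mean, it read 10.57 and 10.48 unstimulated and 11.55 and 11.60 with zymosan and rose 2.07-fold (difference 1.05, SE 0.11, adjusted p = 0.0053). At 1460291_at it read 6.39 and 7.66 unstimulated and 4.85 and 4.80 with zymosan and fell 4.59-fold (difference -2.20, SE 0.39, adjusted p = 0.0205), with the unstimulated arrays 1.27 apart. At 1435338_at it read 10.69 and 10.73 against 10.66 and 10.74, a difference of -0.01 (adjusted p = 0.958). The direction of Cdk6 thus depended on the probe set read.

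Of the E-type cyclins, which act after the D-type, Ccne2 passed the test and Ccne1 did not. Ccne2 read 8.55 and 8.31 unstimulated and 8.92 and 9.06 with zymosan and rose 1.47-fold (difference 0.55, SE 0.13, adjusted p = 0.0432). Ccne1 differed by 0.25 (95% interval -0.04 to 0.54, adjusted p = 0.206). E2f2, an activating E2F factor, rose 1.79-fold at 1455790_at, from 6.53 and 6.28 to 7.47 and 7.02 (adjusted p = 0.0351), and differed by -0.16 at its probe set of highest mean (adjusted p = 0.405). E2f1 differed by -0.18 (adjusted p = 0.329).

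None of the 3 inhibitors of cyclin-dependent kinases passed the test, and all had slightly lower means. Cdkn1a, or p21, read 11.38 and 11.40 unstimulated and 11.06 and 11.08 with zymosan, a difference of -0.32 (95% interval -0.58 to -0.07, adjusted p = 0.0894), with no overlap between tight pairs, and -0.04 at its second probe set. Cdkn1b, or p27, differed by -0.04 (95% interval -0.34 to 0.26, adjusted p = 0.848) and Cdkn2c, or p18, by -0.04 (95% interval -0.33 to 0.25, adjusted p = 0.866), both with overlapping groups.

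Without zymosan replicate 1, and likewise without replicate 2, limma called 0 of the 28 G1 probe sets, where 11 (without replicate 1) and 9 (without replicate 2) had an unadjusted p under 0.05, and the Cdk6 increase at 1455287_at had adjusted p = 0.0504 and 0.0664. When the day was blocked that increase was the 1 call left (adjusted p = 0.0224). Without unstimulated replicate 1, 5 rose and 2 fell, and both Ccnd2 calls were lost. Without unstimulated replicate 2, 2 rose and 6 fell, the calls of Ccnd1, Ccne2 and E2f2 were lost, and the Cdk6 difference at 1460291_at was -1.56, against -2.84 without unstimulated replicate 1.

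Cdk6 was the most marked case of probe sets of 1 gene that disagree. Of the 38 members with at least 2 tested probe sets, 17 had differences of both signs and 5 (13.2%) had differences at least 1 log2 unit apart, where 11.8% of 5920 genes on the array did. Cdk6 was the 1 member called higher at one probe set and lower at another, as were 1.27% of those genes. The 5 were Cdk6, Cenpe, Kif11, Nusap1 and Uhrf1, and in each of them the lowest difference lay at a probe set that was not the gene's highest. Kif11, the kinesin that pushes spindle poles apart, read 8.73 and 8.56 unstimulated and 8.14 and 7.31 with zymosan at 1452315_at (difference -0.92, SE 0.27, adjusted p = 0.0765), and differed by 0.31 and 0.10 at its others. Mcm3 showed a smaller split, with 0.42 at 1426652_at (adjusted p = 0.0555) and -0.48 at 1426653_at (adjusted p = 0.0612). The part of each transcript that a probe set reads is not known here.

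**Figure D4:**
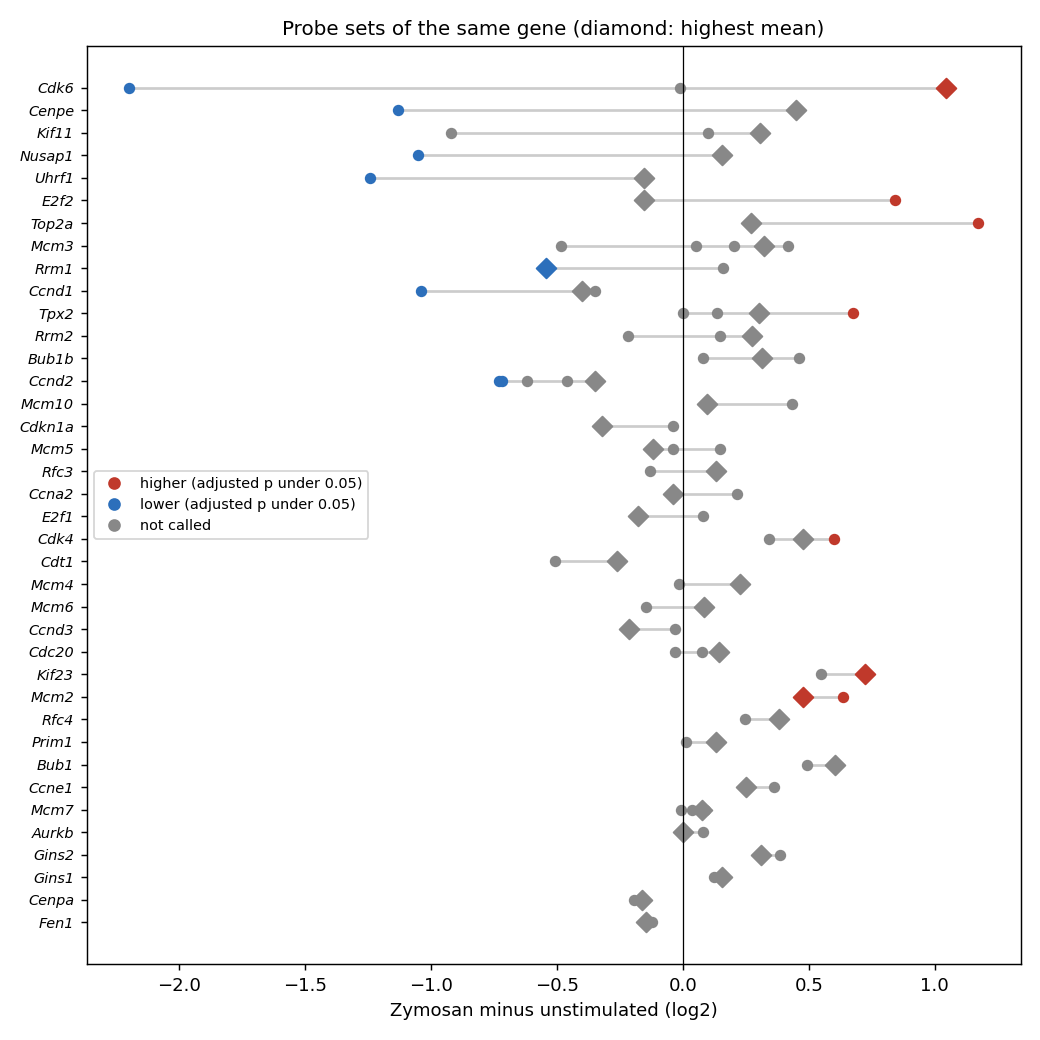
Differences (zymosan minus unstimulated, log2) of every tested probe set of the 38 member genes with at least 2, ordered by their spread, with a diamond for the probe set of highest mean and colour for limma's call. Cdk6 runs from -2.20 to 1.05, while the probe sets of Fen1, Cenpa and Gins1 are 0.02, 0.03 and 0.03 apart.

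Other replication and mitosis genes also had medians above 0 at their probe sets of highest mean. Of 38 other replication genes 5 rose and 1 fell, where 8.36% of all genes rose and 5.64% fell, with a median difference of 0.24. Over all 70 tested probe sets of these genes 6 rose and 6 fell (8.57% each), where 8.48% and 7.45% of the array did. Cdc45, the helicase partner that travels with the Mcm ring, rose by 0.99 (adjusted p = 0.0149), Orc1 of the origin recognition complex by 0.54 (adjusted p = 0.025), the polymerase delta subunit Pold2 by 0.51 (adjusted p = 0.0304) and Mcm8 by 0.82 (adjusted p = 0.0404). Dck, deoxycytidine kinase of the salvage pathway, fell by 0.62 (adjusted p = 0.0168). Of 44 other mitosis genes 5 rose and limma called 0 lower at the probe set of highest mean (0 with an unadjusted p under 0.05), with a median of 0.14. Over all 95 tested probe sets of these genes 9 rose (9.47%) and 5 fell (5.26%). Plk4, the kinase of centriole duplication, rose by 0.93 (adjusted p = 0.0196), the kinase Pbk by 0.54 (adjusted p = 0.0258), the separase Espl1 by 0.47 (adjusted p = 0.042) and the cleavage-furrow protein Anln by 0.63 (adjusted p = 0.0477). These lists also differed within the unstimulated pair, where 36 of the 44 mitosis genes were higher on unstimulated array 1, by a median of 0.13.

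Of 25 tested other G1 regulators 6 rose and 1 fell, against the same 8.36% and 5.64% of all genes, with a median of 0.16. Over their 50 tested probe sets 9 rose (18.0%) and 4 fell (8.0%). The antiproliferative genes Tob1 and Btg1 rose by 0.78 (adjusted p = 0.0096) and 0.66 (adjusted p = 0.0217), the inhibitor Cdkn2d, or p19, by 0.62 (adjusted p = 0.0173) and Cdk7, of the kinase that activates other cyclin-dependent kinases, by 0.57 (adjusted p = 0.026). Tfdp2, a dimer partner of E2F factors, fell by 0.74 (adjusted p = 0.011). Of 10 tested genes of the p53 response, to which Cdkn1a belongs, Mdm2 rose by 0.90 (adjusted p = 0.0078) and Plk2 by 0.84 (adjusted p = 0.0115), while Phlda3 fell by 0.95 (adjusted p = 0.0224) and Bbc3 by 0.70 (adjusted p = 0.0239). Of all genes 8.36% rose and 5.64% fell. Over the 17 tested probe sets of the p53 list 2 rose (11.8%) and 5 fell (29.4%). Of all tested probe sets 8.48% rose and 7.45% fell. The list median was -0.43 at the probe sets of highest mean.

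Read by promoter letters, the 13 mitosis genes with both CHR letters and a CCAAT box had differences from -0.16 to 0.72 with a median of 0.31. Mki67, Cdk1 and Kif23 were the 3 that rose at their probe sets of highest mean. The 8 replication genes with E2F letters (Mcm3, Mcm5, Mcm6, Mcm7, Cdc6, Cdt1, Rfc3 and Pola1) had differences from -0.26 to 0.32 with a median of 0.08, and limma called 0 of them at that level. Of all genes 8.36% rose and 5.64% fell. Among mitosis genes with a window but no CHR letters, Cenpe differed by 0.45, Nusap1 by 0.16, Mad2l1 by 0.10 and Birc5 by -0.01. The 3 replication genes with CHR letters and CCAAT (Mcm2, Mcm7 and Rfc3) had a median of 0.13, and Mcm2 rose. Mcm7 and Rfc3 also carry E2F letters. The 13 and the 8 differ in role too, so letters and role cannot be told apart between them. No test of the difference between these sets was made.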

How the data were processed

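The samples were 4 arrays, 2 per group. Per the submitters' processing notes the authors used RMA, and each deposited value is the log2 expression of 1 probe set on 1 array. RMA corrects for background, brings arrays to a common distribution and combines the probes of a set. The sources used here give neither its version nor which arrays were normalized together. Array medians lay between 4.92 and 4.94. The scanner settings files served for the chip type and the processing days only.

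After 64 control probe sets were set aside, 45037 remained, of which 34945 had 1 gene symbol in the platform annotation, 932 several and 9160 none. A probe set was tested when it reached the array's 40th percentile (log2 4.36 to 4.39) on at least 2 arrays, which left 27571 probe sets and 13222 named genes. Tests were 2-sided, by limma 3.58.1 (lmFit, then eBayes) in R 4.3.3, and the fit was tested on simulated data. Intervals of 95% use limma's SE and degrees of freedom. The members and gene lists were chosen with earlier results of these data known. In full were described the members with a probe set past the threshold, the 3 largest differences each way per list and a fixed set of anchor genes, and, for other genes of a role, up to 4 called genes of smallest p each way. The processing day could not be fitted with duplicateCorrelation, so its correlation (0.54) was taken from the squared differences of the same-day and different-day pairs. With 2 arrays a group, precision is set by their number.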

Additional observations from a re-analysis of the deposited data

How the results depend on the processing

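All 19 called member probe sets kept their sign in every fit in which they were tested. With the day as a random block 741 probe sets of the array were higher and 647 lower, and of the members 0 and 1 (replication), 0 and 0 (mitosis) and 1 and 0 (G1 regulators), where limma gave 28 of 115 an unadjusted p under 0.05. With 1 probe set per gene the array had 1335 higher and 890 lower, the replication genes 1 and 1, and the mitosis genes and G1 regulators 0 lower. A filter at the 60th percentile gave 8 mitosis probe sets higher and 1 lower and 4 replication probe sets lower. A filter on the mean gave 1 mitosis and 4 replication probe sets lower, and an intensity trend 4 replication probe sets lower. Median centring gave 1 replication probe set lower, and no filter gave 1 there and 2 G1 probe sets lower. The cause of these changes was not tested. Leaving out 1 array at a time gave 231 to 2531 higher and 157 to 2280 lower on the array, 0 to 2 and 0 to 2 for replication, 0 to 9 and 0 to 2 for mitosis and 0 to 5 and 0 to 6 for the G1 regulators. The median over probe sets then ran from 0.0615 to 0.125 (replication), 0.0896 to 0.245 (mitosis) and -0.155 to -0.0623 (G1 regulators). Among genes that were not called, Birc5 changed sign with median centring (0.0182), and with an array left out Birc5 ran from -0.0233 to 0.0122, Ccna2 from -0.165 to 0.083, Ccnb2 from -0.125 to 0.0295, Cdkn1b from -0.155 to 0.0659 and Cdkn2c from -0.132 to 0.0541. No paired analysis was possible because the labels give no replicate numbers shared by the groups. The block fit planned with duplicateCorrelation returned no value and was replaced after seeing the data.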
